A study of Mus musculus with 16 samples.

Results

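The glutathione and NRF2 antioxidant genes of mouse lung were described across 16 arrays of the ovalbumin challenge of Cox4-2 knockout mice. Members were chosen by their annotated symbol: every glutathione S-transferase of the Gsta, Gstm, Gstp, Gstt, Gsto, Gstk and Gstz families, every glutathione peroxidase (Gpx), and 13 named genes of glutathione synthesis, NRF2 response and superoxide or peroxide removal. The rule found 60 of the 25697 probes in the table, which belong to 41 genes. Gsr, glutathione reductase, is one of the 13 named genes and was not analysed here because no probe carried its symbol. Of the 41 genes, 36 were tested, since a probe of theirs read above 16.8 intensity units, the limit of background, on at least 4 arrays, and 34 of these were above background on all 16 arrays. Gpx5, Gpx6, Gsta1, Gstm3 and Gstt4 were not tested, and Gsta2 and Nqo1 were above background on some arrays only.

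Lung RNA of female C57BL/6N mice aged 17 weeks was hybridised to Illumina arrays, 1 mouse per array and 4 mice per group. The groups were challenged mutants, untreated mutants, challenged wild type and untreated wild type. Mutants carry a knockout of Cox4-2 (Cox4i2 on the array), which encodes a lung-rich form of a cytochrome c oxidase subunit, and the labels name no Cre or transgene. Challenged mice had 10 µg ovalbumin (OVA) in 2 mg alum injected into the peritoneum and later inhaled an aerosol of 1% OVA for 30 min on several occasions, a model of allergic airway inflammation. The untreated groups are labelled as having no treatment, so sensitisation and aerosol were not separated by the design. Whole-lung RNA was measured, so fewer cells of a type and less RNA per cell cannot be told apart in any value that follows.

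Glutathione is a small peptide that cells use to reduce peroxides and to tag reactive compounds for removal. Glutamate-cysteine ligase (Gclc, Gclm) and glutathione synthetase (Gss) make it, glutathione S-transferases join it to electrophiles, and glutathione peroxidases spend it on peroxides. NRF2, a transcription factor encoded by Nfe2l2 and held back by KEAP1, raises many of these genes through antioxidant response elements, and in the airway the club cells of the bronchioles are rich in transferases.

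The promoters of 4 members are shown because they hold the core letters of the antioxidant response element: Gsta3 and Srxn1 passed the test in challenged wild type, while Gclm and Txnrd1, familiar NRF2 target genes, did not pass in either genotype. The sequences are RefSeq promoter windows of 300 bases in build GRCm38.p6, all on the + strand: chr1:21240335-21240634 for Gsta3, chr2:152105274-152105573 for Srxn1, chr3:122245307-122245606 for Gclm and chr10:82858956-82859255 for 1 of the Txnrd1 windows. Each runs from upstream of the gene's start to a short way past it. Capitals mark the match to TGACNNNGC, searched on both strands.
Gsta3: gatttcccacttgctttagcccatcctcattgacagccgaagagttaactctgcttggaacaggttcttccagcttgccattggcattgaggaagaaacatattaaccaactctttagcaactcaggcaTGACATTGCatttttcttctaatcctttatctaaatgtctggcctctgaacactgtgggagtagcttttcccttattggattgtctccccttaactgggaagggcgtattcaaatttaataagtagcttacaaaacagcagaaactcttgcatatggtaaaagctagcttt
Srxn1: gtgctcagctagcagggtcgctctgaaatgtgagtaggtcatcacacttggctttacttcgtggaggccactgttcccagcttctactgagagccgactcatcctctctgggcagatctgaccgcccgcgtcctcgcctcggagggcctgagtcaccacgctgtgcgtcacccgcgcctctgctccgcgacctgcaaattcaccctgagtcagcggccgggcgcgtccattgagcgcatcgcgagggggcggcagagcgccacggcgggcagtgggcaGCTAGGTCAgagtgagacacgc
Gclm: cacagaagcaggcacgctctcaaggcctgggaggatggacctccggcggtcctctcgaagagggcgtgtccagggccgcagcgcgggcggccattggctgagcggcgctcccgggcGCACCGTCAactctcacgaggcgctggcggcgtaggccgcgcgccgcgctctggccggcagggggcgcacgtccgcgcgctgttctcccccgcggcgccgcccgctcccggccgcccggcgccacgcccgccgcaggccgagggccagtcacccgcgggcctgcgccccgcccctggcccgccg
Txnrd1: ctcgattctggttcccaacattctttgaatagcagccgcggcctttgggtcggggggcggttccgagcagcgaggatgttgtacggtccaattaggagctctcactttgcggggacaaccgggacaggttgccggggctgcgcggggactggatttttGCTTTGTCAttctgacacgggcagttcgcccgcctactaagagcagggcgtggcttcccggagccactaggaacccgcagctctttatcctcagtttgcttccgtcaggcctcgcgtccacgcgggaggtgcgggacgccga
The match begins at base -121 from the start in Gsta3, at base -134 in Gclm and at base -92 in Txnrd1. In Srxn1 it lies past the start, at base 29, and the Srxn1 window also holds 2 matches to the AP-1-like letters TGANTCA that do not overlap it. Promoter windows were found for 36 of the 41 member genes, and none for Gclc, Gsta4, Gstt2, Hmox1 and Sod3. TGACNNNGC stood in 6 of these 36 genes (16.7%), namely Gclm, Gsta3, Gstm5, Sod1, Srxn1 and Txnrd1, and in 14.0% of all 27025 genes. TGANTCA stood in 4 (11.1%), namely Gstm5, Gstp1, Gstp2 and Srxn1, and in 8.97% of all genes. The members' shares were thus close to those of all genes, and a match of these letters is not a bound site. The search was strict. TGAGTCAGC, which stands in the Srxn1, Gstp1 and Gstp2 windows, differs from TGACNNNGC by a single letter and was counted under TGANTCA only.

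Transcripts of other tissue stood out on 3 challenged arrays, mutant array 2 and wild-type arrays 1 and 3. Their skeletal muscle marker scores were 3.44, 4.44 and 4.87 on the log2 scale, set to 0 at the mean of untreated wild type. The remaining 5 challenged arrays lay between -0.13 and 0.45, and the untreated ones between -0.25 and 0.16. Calls of antioxidant genes that change without these 3 arrays are given beside them, and the other lists are counted with and without the arrays. Leaving them out keeps only arrays 2 and 4 of challenged wild type, so the wild-type results of that setting rest on few mice. Fat cell marker scores were -0.89 and -1.15 on those arrays, against -0.46 to 0.23 in untreated wild type. Squamous epithelium scores were 0.83 and 0.86 on challenged mutant arrays 3 and 4 and 0.98 on challenged wild-type array 4. They were 3.32 to 3.99 on the arrays left out, and at most 0.17 on untreated arrays. Cox4i2 read 106, 124, 104 and 243 in challenged mutants and 102, 77.5, 181 and 189 in untreated mutants. In wild type it read 223, 281, 182 and 305 after challenge and 247, 252, 260 and 372 without. Challenged mutant array 4 therefore lay within the challenged wild-type range, and where the probe lies on the deleted gene was not analysed here, so the signal checks the labels only in part. All 8 alveolar type 2 cell markers, which define lung tissue, were above background and tested.

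Challenge changed a minority of the antioxidant genes, in both directions. Levels are given as the deposited normalised intensities, and fold and log2 differences come from background-corrected values with 16 added. The correction fitted a noise mean of -24.8 (average over arrays) to values already background subtracted, and so raised them before the 16 was added. This understates the change of dim probes more than the 16 alone would. In challenged mutants, 8 of 36 members differed from untreated mutants at an adjusted p under 0.05 (limma, Benjamini-Hochberg over 11962 features), 4 higher and 4 lower. That is 22.2% of members beside 23.8% of all features (12.1% higher, 11.7% lower). In challenged wild type, 10 of 36 differed from untreated wild type, 5 higher and 5 lower, which is 27.8% beside 17.6% of all features (8.19% higher, 9.43% lower). The median log2 difference of the 36 members was -0.07 in mutants and -0.06 in wild type, beside 0.01 and -0.01 for all features. Groups did not overlap for 9 members in mutants (25.0%, against 29.6% of features) and for 10 in wild type (27.8%, against 17.9%). Without the 3 arrays with other tissue 8 members passed in mutants and 11 in wild type. The wild-type count was 6 without challenged array 2, without challenged array 4 or without untreated array 2.

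Of the 8 members called in mutants and the 10 called in wild type, 5 were shared, each in the same direction. Gstm1 and Gstp1 were lower in both genotypes, and Gsto1, Gstt2 and Sod2 higher. Nqo1 and Sod3 fell and Gpx3 rose in mutants, without passing in wild type. Gsta3, Gstm6 and Srxn1 fell and Gpx4 and Txn1 rose in wild type, without passing in mutants. In the other 23 tested members neither challenge comparison passed. The difference between the genotypes' responses was tested for every member, and none passed (0 of 36, and 0% of all features).

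**Figure D1:**
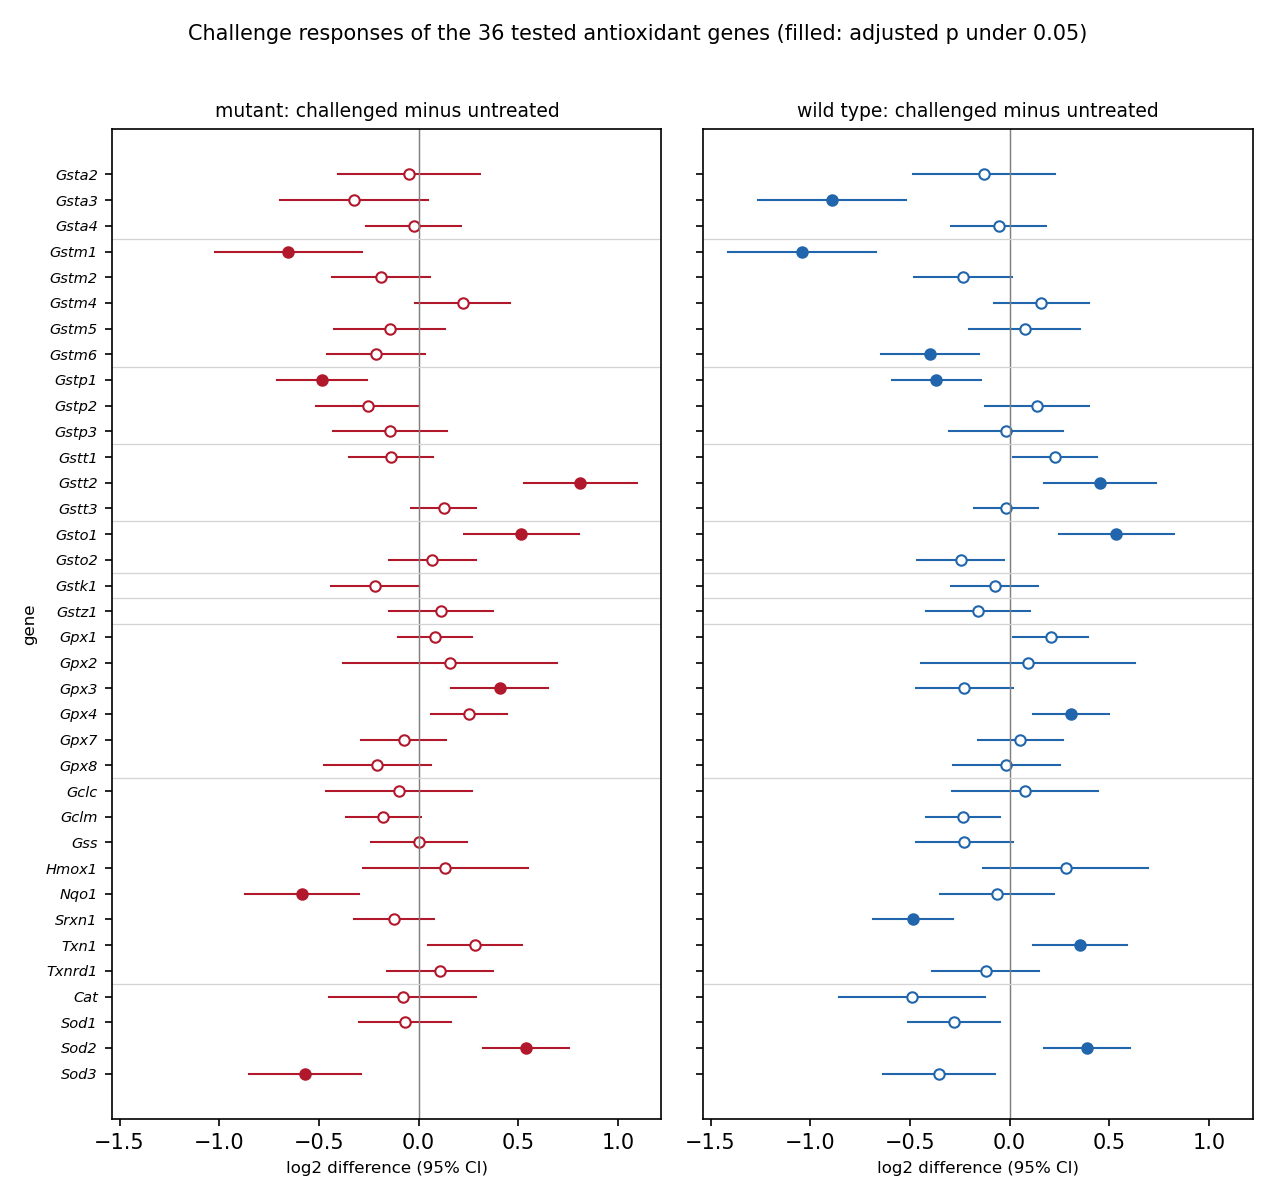
Log2 difference between challenged and untreated lungs for the 36 tested antioxidant genes, in mutants (left) and wild type (right), with limma's 95% confidence intervals. Filled points passed an adjusted p of 0.05. Gstt2 rises furthest in mutants (0.81) and Gstm1 falls furthest in wild type (-1.04), and most of the other intervals lie across or near 0.

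Among the 18 transferases tested, the mu-class and alpha-class genes Gstm1 and Gsta3 fell furthest in wild type. Gstm1, a mu-class enzyme that conjugates a broad range of electrophiles, read 1496, 1568, 2277 and 1770.3 in challenged mutants, against 2414, 2914, 3065 and 2770.3 in untreated mutants. It read 1642, 1199.8, 2080.1 and 1046 in challenged wild type, against 3106, 3379.6, 2725 and 2849.5 in untreated wild type. All challenged arrays lay below all untreated arrays of their genotype. The level was 1778 ± 352 in challenged mutants and 2791 ± 279 in untreated mutants (SD, n = 4 each), 1.57-fold lower (log2 difference -0.65, SE 0.18, adjusted p = 0.014). In wild type it was 1492 ± 466 after challenge and 3015 ± 290.4 without, 2.06-fold lower (log2 difference -1.04, SE 0.18, adjusted p = 0.00112). The fall was thus larger than the spread between arrays in both genotypes.

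Gsta3 encodes an alpha-class transferase and read 3704, 2714, 4683 and 3676 in challenged mutants, against 3704, 5487, 4565 and 4608 in untreated mutants. Wild-type arrays gave 2679.7, 2687, 3514 and 2266 after challenge, against 5841, 6196, 4081 and 4731 without. The wild-type groups were apart, while the mutant groups shared a value of 3704 and overlapped. Gsta3 fell 1.86-fold in wild type (log2 difference -0.89, SE 0.18, adjusted p = 0.00302), and in mutants the difference did not pass (log2 difference -0.32, SE 0.18, adjusted p = 0.19). Its dimmer second probe gave -0.34 in mutants and -0.81 in wild type. Markers of club cells, the secretory cells of the bronchioles, were counted beside it. Of 8 tested markers of 10 listed, 2 fell in mutants and 5 in wild type (2 and 5 without the 3 arrays with other tissue), and none rose. That is 25% in mutants, near the 23.8% of all features, and 62.5% in wild type, beside 17.6%. In mutants 3 markers had positive and 5 negative differences. Their summed intensity was 98455 to 110543 in challenged mutants, 101543 to 120803 in untreated mutants, 82563 to 95038 in challenged wild type and 97269 to 139556 in untreated wild type. No tested club cell marker was at 0 throughout, and the part of club cells in the falls of Gsta3 and Gstm1 was not tested.

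Gstp1, a pi-class transferase abundant in lung epithelium, read 1299, 1300.4, 1829 and 1466 in challenged mutants, against 2050.0, 2218, 1888 and 2086 in untreated mutants. In wild type the arrays gave 1496, 1382, 1501 and 1565 after challenge, against 1951, 2150.4, 1739 and 1887 without. Both pairs of groups were apart, and Gstp1 fell 1.40-fold in mutants (log2 difference -0.48, SE 0.11, adjusted p = 0.00456) and 1.29-fold in wild type (log2 difference -0.37, SE 0.11, adjusted p = 0.0252). Without the 3 arrays with other tissue the wild-type difference of -0.38 no longer passed (adjusted p = 0.0604). Its 2 other detected probes disagreed with the brightest one, at 0.07 and -0.09 in mutants and -0.12 and 0.10 in wild type. Gstp1 and Gstp2 are near-identical copies, so the Gstp1 result is uncertain. Gstm6, a further mu-class gene, read 98.2, 71.0, 103 and 70.3 in challenged mutants, against 97.4, 103, 121 and 98.6 in untreated mutants. It read 62.4, 57.8, 88.6 and 56.1 in challenged wild type, against 96.0, 119.6, 96.5 and 87.3 in untreated wild type. Wild-type groups overlapped by 1 challenged array, at 88.6, and Gstm6 fell 1.32-fold there (log2 difference -0.40, SE 0.12, adjusted p = 0.0263). In mutants it did not pass (log2 difference -0.21, SE 0.12, adjusted p = 0.194), and its second probe gave -0.15 in mutants and -0.08 in wild type.

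Gstt2 of the theta class and Gsto1 of the omega class rose in both genotypes. Gstt2, a theta-class transferase, read 142, 126, 78.7 and 158 in challenged mutants, against 58.5, 60.0, 39.6 and 53.9 in untreated mutants. Wild-type lungs gave 142, 166, 137 and 177 after challenge, against 104, 114, 90.7 and 99.9 without. Challenged arrays lay above untreated ones in both genotypes, and the untreated mutants were the lowest group of all. Gstt2 rose 1.75-fold in mutants (log2 difference 0.81, SE 0.13, adjusted p = 0.000857), the largest rise among members, and 1.37-fold in wild type (log2 difference 0.45, SE 0.13, adjusted p = 0.0276). Gsto1, an omega-class enzyme that reduces protein-glutathione bonds, read 5020.0, 4486, 4795 and 4411 in challenged mutants, against 3460.5, 3136, 3885 and 2668 in untreated mutants. It read 3885, 5452, 4863 and 3558 in challenged wild type, against 3514, 2922, 2734 and 2905 in untreated wild type. Again no challenged array lay within the untreated range, and Gsto1 rose 1.43-fold in mutants (log2 difference 0.51, SE 0.14, adjusted p = 0.0127) and 1.45-fold in wild type (log2 difference 0.54, SE 0.14, adjusted p = 0.013). The other 12 transferases passed in neither genotype, with log2 differences of -0.25 to 0.22 in mutants and -0.25 to 0.23 in wild type. They include Gsta4, known for handling lipid aldehydes, at -0.02 in mutants and -0.05 in wild type, and the mu-class gene Gstm2 at -0.19 and -0.23.

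**Figure D2:**
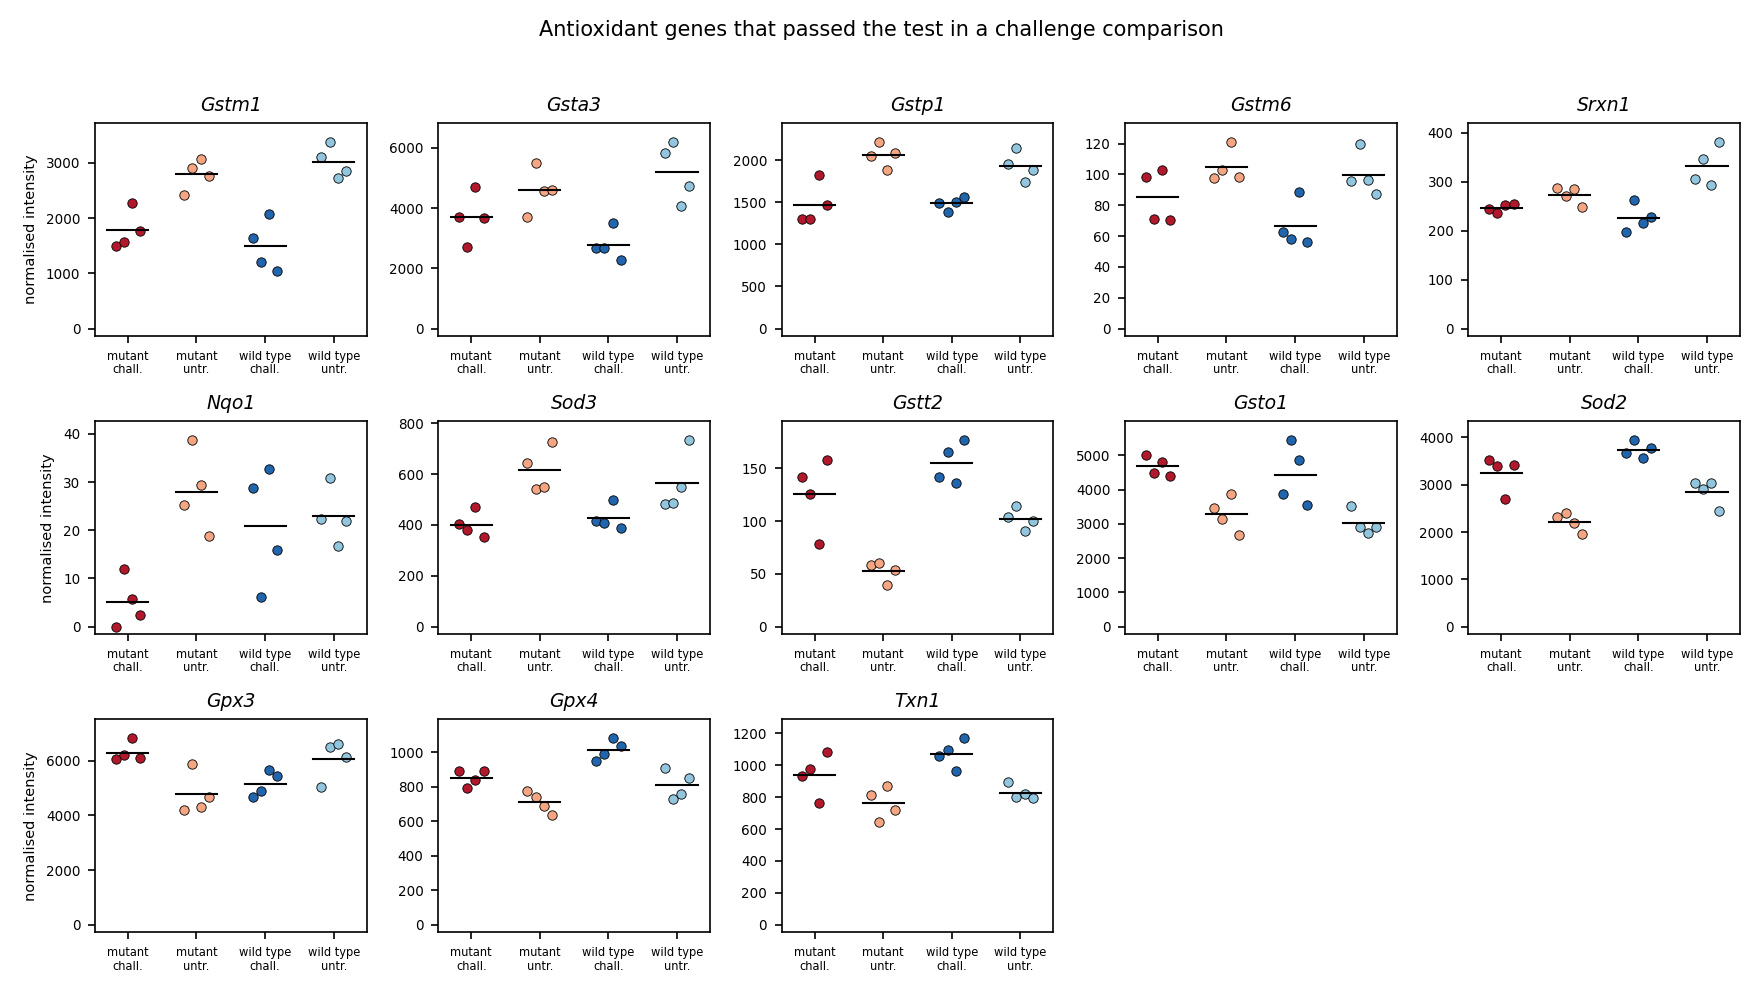
Deposited normalised intensity of the 13 antioxidant genes called in a challenge comparison, on each of the 16 arrays (points) with group means (lines), linear axes that include 0. Gstm1, Gstp1, Gstt2, Gsto1 and Sod2 differ between challenged and untreated lungs in both genotypes, while Nqo1 lies near 0 in all 4 challenged mutants.

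Of the 6 glutathione peroxidases tested, 1 passed in each genotype (16.7%, against 23.8% of all features in mutants and 17.6% in wild type). Gpx3, the secreted peroxidase found in plasma and in airway lining fluid, read 6049.8, 6196, 6823 and 6099.7 in challenged mutants, against 4193, 5893, 4312 and 4683 in untreated mutants. Wild-type lungs read 4659.9, 4873, 5645 and 5452 after challenge, against 5032, 6480.5, 6599.6 and 6133 without. Challenged mutants lay above all untreated mutants, whereas the wild-type groups overlapped with challenge on the lower side. Gpx3 rose 1.33-fold in mutants (log2 difference 0.41, SE 0.12, adjusted p = 0.0181), and the wild-type difference did not pass (log2 difference -0.23, SE 0.12, adjusted p = 0.183). The difference between the responses was 0.64 (SE 0.16), the largest among members, with an adjusted p of 0.18.

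Gpx4, which reduces lipid peroxides within membranes and guards against ferroptosis, read 889, 791, 842 and 892 in challenged mutants, against 775, 744, 691 and 634 in untreated mutants. It read 948, 989, 1083 and 1035 in challenged wild type, against 906, 729, 759 and 854 in untreated wild type. Groups were apart in both genotypes, yet the test passed in wild type (1.24-fold higher, log2 difference 0.31, SE 0.09, adjusted p = 0.0264) and not in mutants (log2 difference 0.25, SE 0.09, adjusted p = 0.0522). Without the 3 arrays with other tissue the wild-type adjusted p was 0.0695, and a dimmer second probe gave -0.43 in mutants and -0.20 in wild type. Gpx1, the main peroxidase of the cytosol, lay between 9587 and 10902 in challenged mutants and 9163 and 9969 in untreated mutants. In wild type it lay between 9692 and 11119.7 after challenge and 8439.8 and 10722 without. Its groups overlapped in both genotypes, at log2 differences of 0.08 (adjusted p = 0.53) in mutants and 0.21 (adjusted p = 0.117) in wild type. Gpx2, an epithelial peroxidase, and Gpx7 and Gpx8 of the endoplasmic reticulum did not pass either, at 0.16, -0.07 and -0.21 in mutants and 0.09, 0.05 and -0.02 in wild type. Other probes of Gpx8 gave -0.39 and -0.12 in mutants and -0.22 and 0.03 in wild type.

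Red blood cells carry much peroxidase and catalase. Of 5 tested markers of 10 listed, 2 rose in each genotype and none fell, and no tested marker was at 0 throughout. With the 3 arrays with other tissue left out, 2 were higher in mutants and 0 in wild type. Their summed intensity was 41995 to 51005 in challenged mutants, 32401 to 44925 in untreated mutants, 27538 to 51737 in challenged wild type and 32341 to 49624 in untreated wild type. Markers of goblet cells, the mucus cells of the airway, also rose, 4 of 6 tested in mutants and 5 of 6 in wild type (4 and 6 without the 3 arrays). Beside these counts, 12.1% of all features passed as higher in mutants and 8.19% in wild type. The part of these cells in the peroxidase values was not tested.

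The classical NRF2 target genes showed no joint rise with challenge. Nqo1, a quinone reductase often used as a readout of NRF2, was dim, at -0.0416, 11.9, 5.79 and 2.47 in challenged mutants, against 25.2, 38.7, 29.3 and 18.8 in untreated mutants. The wild-type values were 28.8, 6.19, 32.7 and 15.8 after challenge, against 22.3, 30.7, 16.8 and 21.9 without. The limit of background was 16.8, so none of the 4 challenged mutants was above background, against all 4 untreated mutants. Nqo1 was at least 1.19-fold lower in challenged mutants (adjusted p = 0.0062) and did not pass in wild type (log2 difference -0.06, SE 0.14, adjusted p = 0.779). A second Nqo1 probe was above background on challenged wild-type array 1 only, and so on no mutant array, and was not tested. Hmox1, heme oxygenase, read 108, 177, 92.9 and 121 in challenged mutants, against 99.9, 119.7, 143 and 75.6 in untreated mutants. It read 165, 145, 198 and 92.7 in challenged wild type, against 80.6, 133, 149 and 98.2 in untreated wild type. These groups overlapped widely, at 0.13 (adjusted p = 0.658) in mutants and 0.28 (adjusted p = 0.336) in wild type.

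Srxn1, sulfiredoxin, which restores oxidised peroxiredoxins, read 244, 237, 253 and 255 in challenged mutants, against 287, 271, 286 and 248 in untreated mutants. In wild type it gave 197, 262, 216 and 227 after challenge, against 306, 347, 293 and 381 without. The wild-type groups were apart and Srxn1 fell 1.40-fold (log2 difference -0.48, SE 0.09, adjusted p = 0.00295), while the mutant groups overlapped (log2 difference -0.12, SE 0.09, adjusted p = 0.364). Its probes did not move alike: the others gave -0.38 and 0.12 in mutants and -0.29 and -0.05 in wild type. Txn1, thioredoxin, read 930.1, 974, 760.2 and 1084 in challenged mutants, against 812, 643, 872 and 719 in untreated mutants. It read 1058, 1093, 962 and 1170.3 in challenged wild type, against 895, 804, 819.6 and 795 in untreated wild type. Txn1 rose 1.28-fold in wild type (log2 difference 0.35, SE 0.11, adjusted p = 0.038) and did not pass in mutants (log2 difference 0.28, SE 0.11, adjusted p = 0.0747), where 1 challenged array lay among the untreated ones. Its dimmer second probe gave 0.00 in mutants and 0.17 in wild type. Txnrd1, which reduces thioredoxin, read 128, 141, 125 and 123 in challenged mutants, against 112, 98.4, 117 and 144 in untreated mutants. It read 113, 107, 89.3 and 107 in challenged wild type, against 152, 127, 77.3 and 119 in untreated wild type. Txnrd1 overlapped in both genotypes and passed in neither, at 0.11 (adjusted p = 0.57) in mutants and -0.12 (adjusted p = 0.547) in wild type.

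The genes of glutathione synthesis did not pass the test by their brightest probes. Gclc, the catalytic subunit of glutamate-cysteine ligase, read 387, 275, 277 and 243 in challenged mutants, against 353, 279, 370.2 and 268 in untreated mutants. It read 313, 375, 221 and 400.4 in challenged wild type, against 352, 301, 226 and 344 in untreated wild type. Its groups overlapped, at -0.10 (adjusted p = 0.723) in mutants and 0.08 (adjusted p = 0.798) in wild type. Gclm, the modifier subunit of that enzyme, read 326, 421, 355 and 366 in challenged mutants, against 392, 408, 437 and 439 in untreated mutants. In wild type Gclm read 336, 383, 308 and 363 after challenge, against 399, 416, 404 and 439 without. All challenged wild-type arrays lay below the untreated ones, but neither -0.18 (adjusted p = 0.155) in mutants nor -0.23 (adjusted p = 0.0779) in wild type passed. Gss, the synthetase, stood at 0.00 (adjusted p = 0.988) in mutants and -0.23 (adjusted p = 0.181) in wild type. Its probes disagreed: the 2 dimmer ones gave -0.42 and 0.27 in mutants and -0.44 and -0.01 in wild type.

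The superoxide dismutases did not move together: the mitochondrial one rose and the extracellular one fell in mutants. Sod2, the mitochondrial enzyme, read 3514, 3391, 2706 and 3409 in challenged mutants, against 2327, 2405, 2201 and 1959.8 in untreated mutants. It read 3662, 3948, 3562 and 3775 in challenged wild type, against 3030.1, 2907, 3033 and 2443 in untreated wild type. Challenged arrays lay above untreated arrays in both genotypes, and Sod2 rose 1.45-fold in mutants (log2 difference 0.54, SE 0.10, adjusted p = 0.00194) and 1.31-fold in wild type (log2 difference 0.39, SE 0.10, adjusted p = 0.0154). Sod3, the extracellular enzyme of the lung and vessel wall, read 402, 380.5, 470.3 and 352 in challenged mutants, against 644, 542, 551 and 728 in untreated mutants. In wild type Sod3 read 417, 407, 498 and 389 after challenge, against 483, 487, 551 and 734 without. It fell 1.48-fold in mutants, where the groups were apart (log2 difference -0.57, SE 0.13, adjusted p = 0.00657), and in wild type the groups overlapped and the test did not pass (log2 difference -0.35, SE 0.13, adjusted p = 0.0748).

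Sod1, the cytosolic dismutase, read 4163, 4071, 4829 and 4771 in challenged mutants, against 4395, 5032, 4486 and 4778 in untreated mutants. It read 3789, 3553, 4762 and 3372 in challenged wild type, against 4926, 5064, 4163 and 4533 in untreated wild type. The groups overlapped in both genotypes, at -0.07 (adjusted p = 0.683) in mutants and -0.28 (adjusted p = 0.0874) in wild type. Cat, catalase, which breaks down hydrogen peroxide in peroxisomes, read 878, 787, 735 and 543 in challenged mutants, against 679, 992, 676 and 767 in untreated mutants. In wild type Cat read 664, 626, 746 and 498 after challenge, against 898, 1192, 887 and 679 without. These groups overlapped too, at -0.08 (adjusted p = 0.775) in mutants and -0.49 (adjusted p = 0.0609) in wild type. Without the 3 arrays with other tissue, Sod1 at -0.42 (adjusted p = 0.0178), Cat at -0.65 (adjusted p = 0.0488) and Gsta2 at -0.45 (adjusted p = 0.043) passed in wild type as lower. Gsta2 was singled out here after its values were seen.

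**Figure D3:**
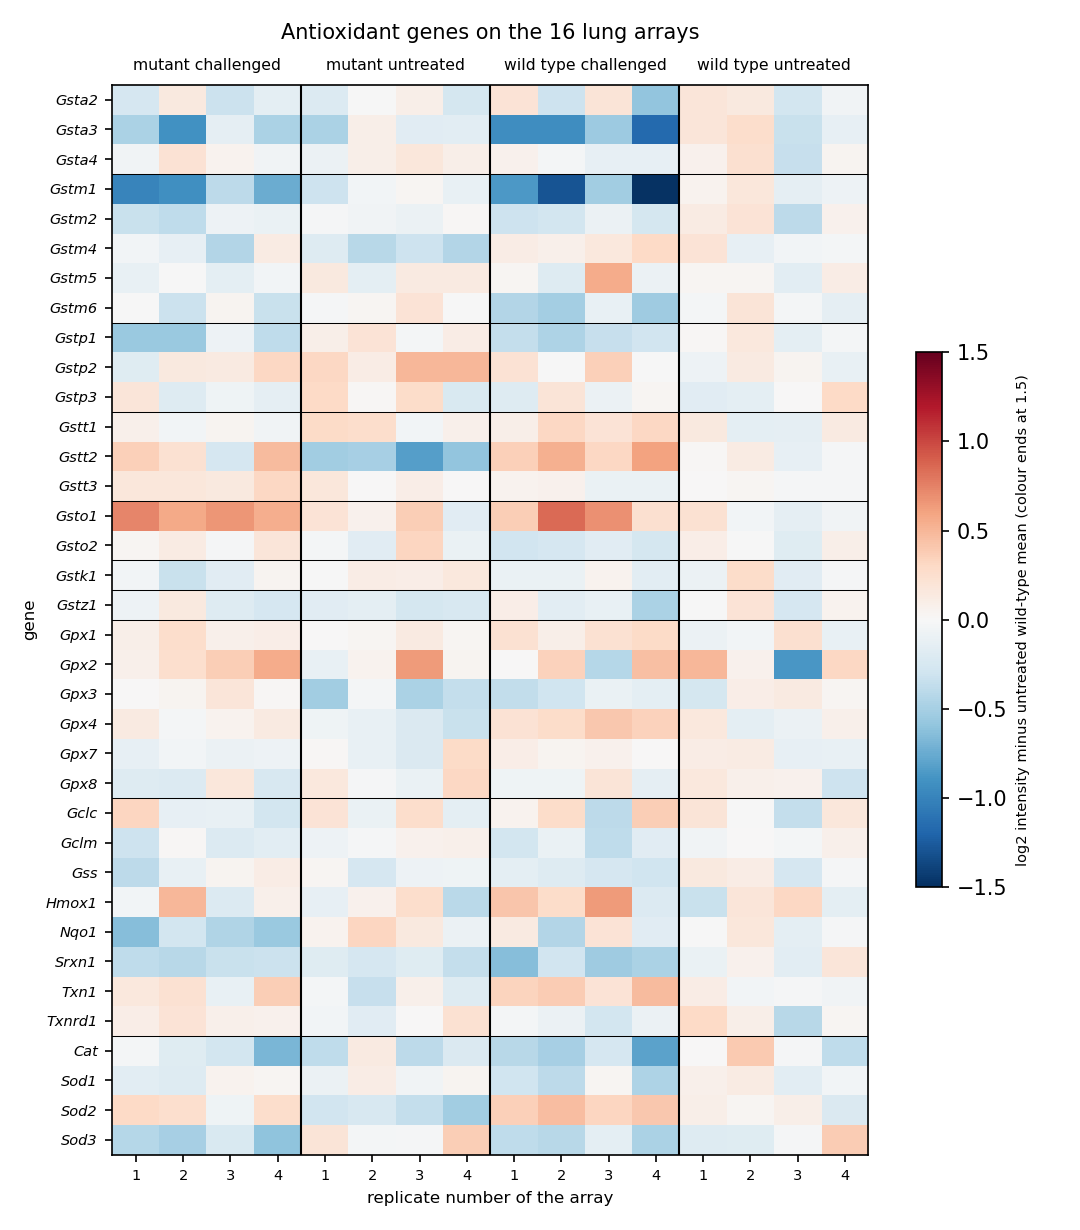
Log2 intensity of the 36 tested antioxidant genes (rows, grouped by family) on the 16 arrays (columns), minus the average of untreated wild-type arrays. Blue is lower and red higher, and the scale ends at 1.5. The lowest values of Gstm1 (1046) and Gsta3 (2266) are on challenged wild-type array 4, and the untreated mutants are lowest for Gstt2.

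No antioxidant gene passed the test between mutant and wild type. Cox4i2, the knocked-out gene, did not pass these limma tests either. Its log2 difference was -0.68 in challenged lungs (adjusted p = 0.265) and -0.90 in untreated lungs (adjusted p = 0.19). Over both treatments it was -0.79 (adjusted p = 0.0833). A gene that did not pass is therefore not shown to be unchanged. In challenged lungs 0 of 36 members differed between mutant and wild type (0.0167% of all features did), in untreated lungs 0 of 36 (0% of features), and over both treatments 0 of 36 (0.0251%). At an unadjusted limma p under 0.05 the counts were 8 members in challenged lungs (22.2%, against 12.2% of features), 6 in untreated lungs (16.7%, against 12.2%) and 6 over both treatments (16.7%, against 12.2%). Groups did not overlap for 8 members in challenged lungs (22.2%, against 6.55% of features) and 4 in untreated lungs (11.1%, against 7.1%). The interaction gave 7 members at an unadjusted p under 0.05 (19.4%, against 12.0%). The members of smallest p in these comparisons, singled out after their values were seen, are given next as values.

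Gstt2 was lower in untreated mutants, at 58.5, 60.0, 39.6 and 53.9, than in untreated wild type, at 104, 114, 90.7 and 99.9. Its groups were apart at a log2 difference of -0.61 (95% interval -0.90 to -0.33, adjusted p = 0.144), and over both treatments the difference was -0.43 (SE 0.09, adjusted p = 0.0892). Sod2 stood at -0.20 in challenged lungs (95% interval -0.42 to 0.01, adjusted p = 0.435) and -0.35 in untreated lungs (95% interval -0.57 to -0.14, adjusted p = 0.203). For Sod2 all 4 mutants lay below all 4 wild type within each treatment. Gpx3 had opposite signs, at 0.29 in challenged lungs (adjusted p = 0.33) and -0.35 in untreated lungs (adjusted p = 0.248). Gstm4 was at -0.28 in challenged and -0.34 in untreated lungs (adjusted p = 0.335 and 0.248). In challenged lungs Gsto2 had the smallest p, at 40.1, 45.5, 37.5 and 49.4 in mutants against 24.2, 26.0, 29.8 and 25.3 in wild type (log2 difference 0.32, adjusted p = 0.242). Nqo1 in challenged lungs was at least 1.05-fold lower in mutants (adjusted p = 0.246), with 2 of 4 wild-type arrays above background. These comparisons share arrays with the challenge comparisons, so their values are not independent of those given before.

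Most genes of NRF2 regulation that passed the test were lower with challenge. Of 12 tested genes of 13 listed, 6 passed in mutants, 1 higher and 5 lower, and 6 passed in wild type, all lower. Each count is 50% of the tested genes, beside 23.8% of all features in mutants and 17.6% in wild type. Their median log2 difference was -0.31 in mutants and -0.33 in wild type, beside 0.01 and -0.01 for all features. Without the 3 arrays with other tissue, 1 was higher and 3 lower in mutants, and 5 were lower in wild type. Nfe2l2, NRF2 itself, read 187, 173, 176 and 154 in challenged mutants, against 325, 366, 356 and 301 in untreated mutants. It read 176, 145, 201 and 215 in challenged wild type, against 255, 257, 278 and 198 in untreated wild type. Nfe2l2 was 1.77-fold lower in challenged mutants with groups apart (log2 difference -0.82, SE 0.11, adjusted p = 0.000264). In wild type 1 untreated array lay within the challenged range (log2 difference -0.36, SE 0.11, adjusted p = 0.0359). Without the 3 arrays the wild-type difference was -0.39 (adjusted p = 0.0737). Its interaction was -0.46 (adjusted p = 0.271).

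Keap1, the adaptor that sends NRF2 to degradation, read 708, 687, 686 and 786 in challenged mutants, against 684, 673, 615 and 609 in untreated mutants. It read 831, 715, 693 and 782 in challenged wild type, against 723, 728, 638 and 708 in untreated wild type. Keap1 did not pass, at 0.14 (adjusted p = 0.228) in mutants and 0.10 (adjusted p = 0.421) in wild type. Sqstm1, the p62 protein that binds KEAP1, read 1489, 1399, 1866 and 1637 in challenged mutants, against 2653, 3030.1, 2706 and 3279 in untreated mutants. It read 1767, 1317, 1931 and 1344 in challenged wild type, against 2299.6, 2426, 2756 and 2745 in untreated wild type. Sqstm1 fell in mutants by 0.86 on the log2 scale (adjusted p = 0.000531) and in wild type by 0.69 (adjusted p = 0.00229), with groups apart in both. Bach1, a repressor at the same response elements, stood at -0.52 (adjusted p = 0.0443) in mutants and -0.87 (adjusted p = 0.00402) in wild type. Mafg, a small MAF partner of both NRF2 and BACH1, stood at -0.30 (adjusted p = 0.016) and -0.35 (adjusted p = 0.00847). Cul3, the ubiquitin ligase scaffold that works with KEAP1, was lower in mutants, at -0.48 (adjusted p = 0.00657). Gsk3b, a kinase that promotes removal of NRF2, was lower in wild type, at -0.38 (adjusted p = 0.0345). Bach1 and Mafg in mutants (adjusted p = 0.0588 and 0.0505) and Gsk3b in wild type (adjusted p = 0.162) did not pass without the 3 arrays. The regulator higher in mutants was Rbx1, a ring protein of the same ligase, at 0.27 (adjusted p = 0.0396), named after its values were seen.

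**Figure D4:**
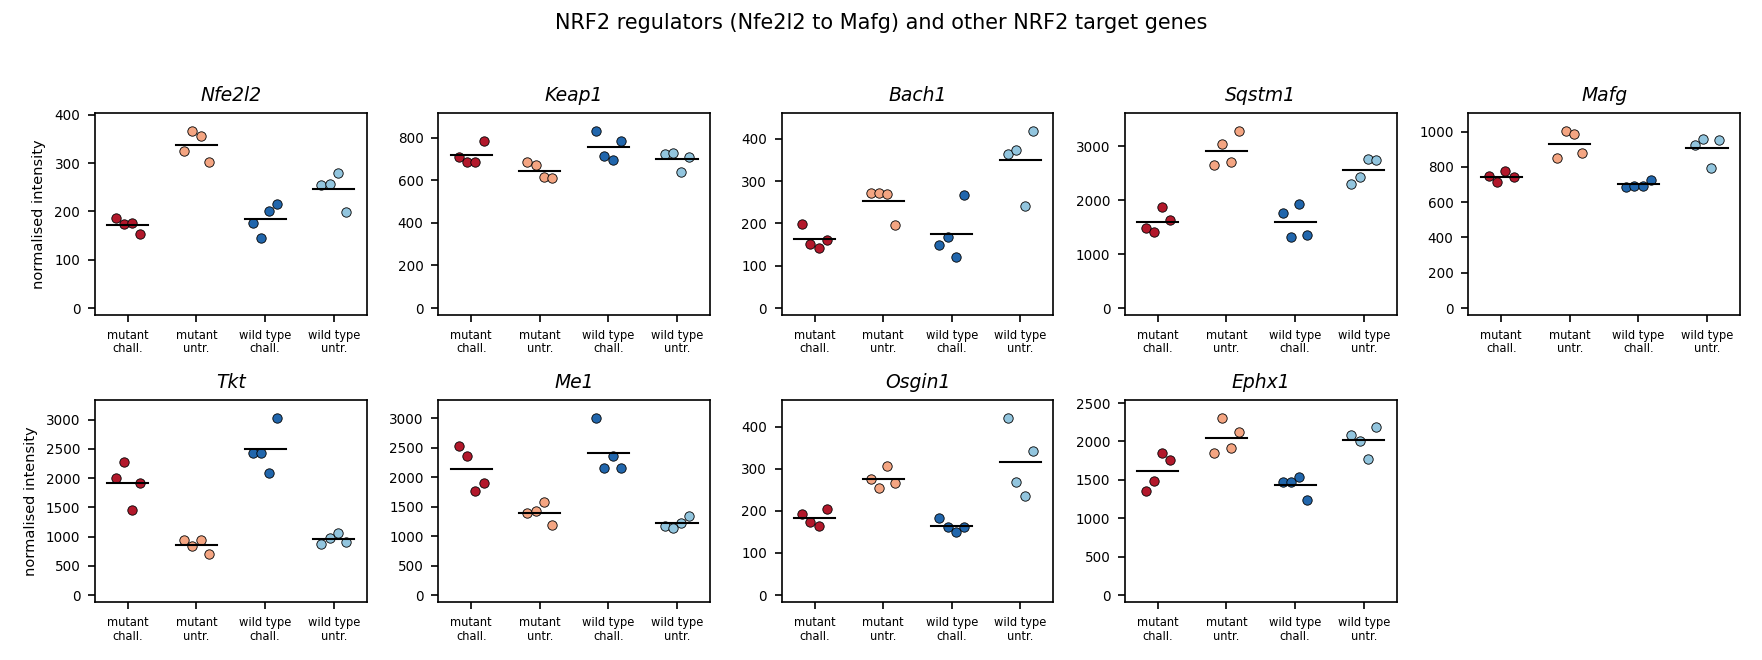
Deposited normalised intensity of 5 NRF2 regulators and 4 further NRF2 target genes on each of the 16 arrays (points) with group means (lines), linear axes that include 0. The group means of Nfe2l2, Sqstm1 and Osgin1 are lower and those of Tkt and Me1 higher in challenged lungs of both genotypes, and Keap1 overlaps.

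Other NRF2 target genes passed in both directions. Of 16 tested of 21 listed, 6 passed in mutants (3 higher, 3 lower) and 4 in wild type (2 higher, 2 lower). That is 37.5% in mutants and 25% in wild type, beside 23.8% and 17.6% of all features. The counts were 2 higher and 1 lower in mutants, and 3 higher and 2 lower in wild type, without the 3 arrays with other tissue. Tkt, transketolase of the pentose phosphate pathway, read 2003, 2271, 1455 and 1912 in challenged mutants, against 946, 841, 945 and 698 in untreated mutants. It read 2422, 2434, 2091 and 3026 in challenged wild type, against 875, 984, 1069 and 917 in untreated wild type. Tkt rose 2.16-fold in mutants (log2 difference 1.11, SE 0.14, adjusted p = 0.000149) and 2.51-fold in wild type (log2 difference 1.33, SE 0.14, adjusted p = 2.45e-05), with groups apart in both. Me1, the cytosolic malic enzyme that makes NADPH, rose 1.51-fold in mutants and 1.94-fold in wild type (adjusted p = 0.00455 and 0.000256). Osgin1, an oxidative stress induced growth inhibitor, fell 1.41-fold in mutants and 1.71-fold in wild type (adjusted p = 0.0118 and 0.000997). Ephx1, microsomal epoxide hydrolase, fell 1.27-fold and 1.40-fold (adjusted p = 0.0347 and 0.00789), and in mutants it did not pass without the 3 arrays (adjusted p = 0.0915).

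Of 19 tested other glutathione genes of 22 listed, 4 passed in mutants (2 higher, 2 lower) and 5 in wild type (3 higher, 2 lower). That is 21.1% in mutants and 26.3% in wild type, beside 23.8% and 17.6% of all features. In mutants 2 were higher and 1 lower, and in wild type 1 was higher and 3 lower, without the 3 arrays with other tissue. Dpep1, a dipeptidase that acts in glutathione breakdown, fell in both, at -0.70 (adjusted p = 0.0121) in mutants and -0.67 (adjusted p = 0.0193) in wild type. Chac1, a glutathione-degrading cyclotransferase, fell in mutants, at -0.71 (adjusted p = 0.0328), and the mitochondrial glutaredoxin gene Glrx5 rose there, at 0.37 (adjusted p = 0.0266). In wild type Glrx2, a second mitochondrial glutaredoxin, fell at -0.46 (adjusted p = 0.00818), while Glrx3 and Mgst2, a membrane-bound transferase, rose at 0.30 (adjusted p = 0.0257) and 0.43 (adjusted p = 0.0317). Chac1 in mutants (adjusted p = 0.0669) and Glrx3 and Mgst2 in wild type (adjusted p = 0.105 and 0.0772) did not pass without these arrays. Of 11 tested thioredoxin and mitochondrial redox genes of 15 listed, 4 passed in mutants (2 higher, 2 lower) and 3 in wild type (1 higher, 2 lower). Their shares were 36.4% in mutants and 27.3% in wild type, beside the same 23.8% and 17.6%. When the 3 arrays were left out, 1 was higher and 0 lower in mutants, and 1 higher and 1 lower in wild type. Txn2, mitochondrial thioredoxin, rose in both, at 0.27 (adjusted p = 0.046) in mutants and 0.35 (adjusted p = 0.0151) in wild type. Sesn1, of the sestrin family of stress proteins, fell in wild type, at -0.94 (adjusted p = 0.00628). Sesn2, a stress-induced sestrin, fell in both, at -0.43 (adjusted p = 0.04) in mutants and -0.44 (adjusted p = 0.0475) in wild type, and passed in neither without the 3 arrays (adjusted p = 0.0864 and 0.17). The Sesn2 probe was dim and above background on 14 of 16 arrays. It read 23.3, 16.6, 17.1 and 12.9 in challenged mutants and 17.8, 20.4, 19.4 and 24.8 in challenged wild type, near the limit of 16.8. No gene of the 4 lists passed in a genotype comparison or in the interaction.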

How the data were processed

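Lung RNA of 16 mice was measured on Illumina arrays, 4 per group, with groups taken from the labels. The deposited values are linear intensities. The submitters' processing notes name GenomeStudio 2011.1 and do not say for which step. From the values, the authors' intensity table is background subtracted (23.5% to 23.8% of each array lies below 0) and quantile normalised, with an upper quartile of 220.674 on every array, by steps that the labels do not describe. A further table of unnormalised signals with 32 columns was not used, because its column names match no label.

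Intensities were corrected with limma's normexp (offset 16) and log2 taken, so folds of dim probes are understated. The fitted noise mean averaged -24.8 over arrays although the values were already background subtracted, which understates these folds further. Probes above an intensity of 16.8 on at least 4 arrays were kept (15869 of 25697), and the brightest probe stood for each gene (11962 features). The limit is percentile 95 of a noise SD of 10.2, read from the values below 0, since the table holds no detection values. Group contrasts came from limma 3.58.1 under R 4.3.3 (lmFit, eBayes, 2-sided, 1 coefficient per group over 16 arrays, Benjamini-Hochberg over all features, threshold 0.05). The spread is that between mice, and the number of arrays limits the precision. Batches were not tested, since neither labels nor headers name a slide or a scan. Marker scores are mean log2 values of a list relative to the untreated wild type.

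Genes with values on every array are members past the threshold in any contrast, plus Nqo1, Hmox1, Gclc, Gclm, Srxn1, Txnrd1 and the Sod and Cat genes. For other lists up to 4 genes of smallest p are named, and Nfe2l2 and Keap1. The members and lists were chosen with earlier results of these data known. Alternatives covered the offset, floor, filter, probe choice, centring, arrays in the fit, arrays with other tissue, the prior, a replicate block and each array left out. Arrays with the same replicate number did not deviate together (24 pairs, r of -0.50 to 0.26, median -0.01), so the numbers were not taken as pairs. The fit was checked on simulated data.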

Additional observations from a re-analysis of the deposited data

Results flagged for a closer look

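In 5 of 144 member groups 1 array lay far from the other 3, by Dixon's test for 4 arrays, and chance flags about 1 in 20 groups. Gpx1 read 10902 on challenged mutant array 2, one of the arrays with other tissue, against 9587 to 9790.5 on the others of its group. On challenged mutant array 3, Gpx8 read 1252 against 929 to 961, and Sod2 read 2706 against 3391 to 3514. Gstt3 read 2294 on challenged mutant array 4, against 2052 to 2087. Gstm5 read 251 on untreated mutant array 2, against 313 to 318. The Sod2 array still lay above all 4 untreated mutants, and the rise of Sod2 in challenged mutants passed without each array in turn.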

How the results depend on the processing

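The challenge counts kept within 1.5 times of the reported ones under all 12 settings that left no single array out: 7 to 9 members in mutants and 7 to 11 in wild type. Leaving out 1 array at a time gave 8 to 10 members in mutants and 6 to 12 in wild type. Each genotype comparison and the interaction gave 0 under every setting run. With the replicate block, 8 members passed in mutants, 8 of them shared with the reported calls, and 10 in wild type, 9 shared, Txn1 being lost, and 0 in the genotype comparisons and the interaction. Of 18 called changes, 10 passed under every alternative run for them: Gstm1, Gsto1, Gstt2, Nqo1, Sod2 and Sod3 in mutants, and Gsta3, Gstm1, Gsto1 and Srxn1 in wild type. Nqo1 had 27 alternatives and the others 28. It could not be tested among probes above background on all 16 arrays, since it was above on 9. Across the 503 alternative values of the called changes, 35 did not pass and 0 were reversed. The weakest were Gpx4 and Txn1 in wild type, which passed in 20 of 28 alternatives, Gstm6 in 22, Gstp1 in 23 and Gstt2 in 24, and the cause was not tested. With the mean over a gene's detected probes, Gstp1 was lost in both genotypes (log2 -0.17, adjusted p = 0.326 in mutants and -0.13, adjusted p = 0.503 in wild type), as its probes disagree. Gpx4 and Gstm6 in wild type did not pass with that mean either. A background model with the noise centred at 0, chosen after seeing the data, gave 8 members in mutants and 10 in wild type. Signals near the background limit, such as Nqo1, Gsta2 and Sesn2, carry the least information.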
